A study of Mus musculus with 2 samples.

Results

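The genes described here are 36 genes of sterol and fatty acid synthesis, 21 in the sterol branch and 15 in the fatty acid branch, among the 27998 genes of the deposited matrices. They were chosen by symbol from a list of names and not by their level, and all 36 symbols were found in both matrices. The cells came from the lungs of C57Bl6 mice injured on day 1 with bleomycin, which damages the alveoli and is followed by scarring. From day 15 to day 20 they received navitoclax (ABT-263), an inhibitor of BCL-2 family proteins, or vehicle, so bleomycin injury was common to both groups. On day 21 the digested lungs were flow-sorted for total epithelial and stromal cells, which were combined in equal parts and captured with a Chromium 3′ kit. There was 1 library per group, and the sources used here do not give the number of mice behind each. No uninjured lung was analysed here.

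Cells build cholesterol from acetyl-CoA through mevalonate, isoprenoid diphosphates, squalene and lanosterol. When membrane sterol is low, the escort protein SCAP carries sterol regulatory element-binding proteins from the endoplasmic reticulum to the Golgi, where they are cleaved to active transcription factors, and INSIG proteins hold the complex back when sterol is plentiful. The factor encoded by Srebf2 acts mainly on sterol genes, and the main product of Srebf1 in many tissues acts on fatty acid genes. Alveolar type II (AT2) cells make surfactant, which is rich in saturated phospholipid, and are known for active lipid synthesis. Lung fibroblasts include alveolar, adventitial and peribronchial subtypes.

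Each cell was assigned to a class by its score for marker lists that held none of the 36 genes. The navitoclax library held 8064 cell barcodes with 98517048 UMIs, counts of distinct captured molecules, and the vehicle library 8784 barcodes with 97958947 UMIs; 20 barcodes occurred in both. After filtering, 6240 navitoclax and 7174 vehicle cells were kept. Barcodes above the limit of 15% mitochondrial UMIs were 18.1% of the navitoclax library and 13.8% of the vehicle library. AT2-like cells numbered 2544 and 2804 in the navitoclax and vehicle libraries, with all 11 AT2 markers at or above 20 CPM (counts scaled to the usual per-million total) in both. Fibroblast-like cells numbered 2825 in the navitoclax library and 3391 in the vehicle library, of which 1968 and 2553 were alveolar fibroblast-like, 395 and 419 adventitial fibroblast-like and 232 and 192 peribronchial fibroblast-like. Ciliated-like cells numbered 432 in the navitoclax and 379 in the vehicle library, and transitional-like cells, marked by Krt8 and Cldn4, 63 in the navitoclax and 57 in the vehicle library. Clustering gave the same class for 5234 of the 5348 AT2-like cells and 6199 of the 6216 fibroblast-like cells, but for 0 of the 120 transitional-like cells, for which no cluster of that name formed. The clusters were named by their mean scores for the same marker lists, so the agreement is not an independent check. Endothelial-like and immune-like cells were too few to describe.

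The promoters of the sterol genes were examined because 11 of the 21 were higher in navitoclax than in vehicle alveolar fibroblast-like cells, as given further on. RefSeq promoter windows (GRCm38.p6, 250 bases before to 50 after the start) were found for 28 of the 36 genes. A letter match to the sterol regulatory element TCACNCCAC, on either strand, lay in 1 of 17 sterol branch windows, that of Hmgcs1, and in 0 of 11 fatty acid branch windows, beside 1.44% of all 27025 genes in the table. CCAAT boxes, the letters bound by nuclear factor Y, which works with sterol regulatory element-binding proteins, lay on either strand in 15 of 17 sterol branch genes (88.2%) and 7 of 11 fatty acid branch genes (63.6%), beside 41.1% of all genes. The E-box CACGTG lay in 5 of 17 sterol and 1 of 11 fatty acid branch genes, beside 8.09% of all genes. The only overlap among matches in the 28 genes was between 2 CCAAT boxes of Fasn. All 7 sterol genes in the table that were higher in navitoclax alveolar fibroblast-like cells held a CCAAT box, as did 8 of the 10 that were neither higher nor lower there. A match of letters is a description and does not show that a factor binds. Stretches of 60 bases are shown for the 3 of these 7 genes whose match lay outside the gene in both RefSeq and GENCODE M21, written 5′ to 3′ on the gene's strand; capitals mark the sterol regulatory element match of Hmgcs1, at chr13:119690187-119690246 (plus strand), and the CCAAT box, read as ATTGG on this strand, of Lss, at chr10:76531516-76531575 (plus strand), and Hsd17b7, at chr1:169969246-169969305 (minus strand).
Hmgcs1: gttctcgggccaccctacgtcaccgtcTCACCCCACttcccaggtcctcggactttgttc
Lss: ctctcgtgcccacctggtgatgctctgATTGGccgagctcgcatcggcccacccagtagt
Hsd17b7: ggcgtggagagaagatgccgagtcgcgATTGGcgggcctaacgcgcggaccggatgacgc

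Levels across cell classes were compared gene by gene in each library. The level is in CPM, the gene's share of all UMIs of that class, and intervals in parentheses are 95% intervals that cover counting error only, not differences between mice or preparations. AT2-like cells had the highest level of 9 of the 15 fatty acid branch genes in both libraries, each with an interval apart from that of the next class. Scd1, the stearoyl-CoA desaturase that makes monounsaturated fatty acids, was at 4745 CPM in navitoclax and 4779 CPM in vehicle AT2-like cells. The next class, transitional-like cells, had 741.5 and 674.3 CPM in the navitoclax and vehicle libraries. The 11 AT2 markers summed to 65690 CPM in navitoclax and 62155 CPM in vehicle transitional-like cells, beside 295464 and 288646 CPM in AT2-like cells. The part of AT2 RNA in the transitional-like levels was not tested. Fatty acid synthase (Fasn) was at 690.5 CPM in navitoclax and 658.1 CPM in vehicle AT2-like cells, 7.31 and 5.77 times the level in transitional-like cells. Elovl1, which elongates very long saturated fatty acids, was at 1411 and 1426 CPM, and Fabp5, a fatty acid carrier, at 1065 and 1144 CPM, in navitoclax and vehicle AT2-like cells. The other 5 were Acly, which releases cytosolic acetyl-CoA from citrate, at 234.7 CPM in navitoclax and 227.8 CPM in vehicle AT2-like cells, and Acaca, which makes malonyl-CoA, at 85.3 and 96.2 CPM. Me1, which supplies NADPH, was at 153.9 and 160.9 CPM, Acsl4, which activates arachidonic acid, at 358.9 and 353.4 CPM, and the regulator Srebf1 at 82.3 and 81.7 CPM, in navitoclax and vehicle AT2-like cells.

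The sterol branch was also highest in AT2-like cells for 14 of 21 genes in both libraries. For these genes AT2-like cells had at most 2.97 times the level of the next class in the navitoclax and 3.06 times in the vehicle library. These margins were below those of Scd1, Fasn, Elovl1 and Fabp5. Other fatty acid genes had margins in the same range, such as Me1 at 1.44 and 1.62 times in the navitoclax and vehicle libraries. Fdps, which makes farnesyl diphosphate, was at 219.4 CPM in navitoclax and 206.7 CPM in vehicle AT2-like cells. That was 2.97 and 2.51 times the level in transitional-like cells, the next class, and 4.47 and 5.15 times the fibroblast-like level. Idi1, the isopentenyl diphosphate isomerase, was at 130.7 and 115.6 CPM, and Hmgcs1, which makes the substrate of the mevalonate step, at 137.9 and 143.2 CPM, in navitoclax and vehicle AT2-like cells. Insig1, which retains the SCAP complex, was at 114.1 and 109.6 CPM there, Msmo1, a sterol methyl oxidase, at 90.7 and 84.3 CPM, and Srebf2 at 70.8 and 76.3 CPM. Acat2, an acetyl-CoA acetyltransferase, was at 52.6 CPM in navitoclax and 51.9 CPM in vehicle AT2-like cells, Cyp51 at 51.4 and 49.8 CPM, and Fdft1 at 46.6 and 44.3 CPM. The remaining 5 were Nsdhl at 29.6 and 28.3 CPM, Mvd at 28.5 and 26.2 CPM, Lss at 22.9 and 21.8 CPM, Stard4 at 22.2 and 23.2 CPM, and Dhcr7 at 15.5 and 14.9 CPM in navitoclax and vehicle AT2-like cells. The enzymes among these are described along the pathway further on. For Fdft1, Mvd and Srebf2 the intervals of AT2-like cells and the next class overlapped in both libraries. They overlapped for Msmo1, Lss and Nsdhl in the navitoclax library only, and for Stard4 in the vehicle library only.

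Several genes departed from this order. Ebp, the sterol isomerase, was at 450.6 CPM (433 to 468) in navitoclax and 392.8 CPM (374 to 413) in vehicle ciliated-like cells, 4.69 and 3.02 times the next class, and its lowest level was in AT2-like cells, at 39.2 and 36.6 CPM. Sqle, which oxidizes squalene, was also highest in ciliated-like cells, at 106.6 CPM in the navitoclax and 101.2 CPM in the vehicle library. Ciliated-like cells thus led in both libraries for these 2 sterol genes, while Idi1 and Cyp51 were low there, at 11.2 and 6.50 CPM in the navitoclax library and 8.58 and 4.79 CPM in the vehicle library. Sc5d, which acts late in cholesterol synthesis, was highest in fibroblast-like cells, at 40.2 and 44.99 CPM in the navitoclax and vehicle libraries, and within them it was at 51.5 and 54.2 CPM in the alveolar subtype. Its intervals in fibroblast-like cells overlapped those of the next class in both libraries.

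In the fatty acid branch, Scd2, another stearoyl-CoA desaturase, was highest in alveolar type I-like (AT1-like) cells, at 699.2 CPM (601 to 809) in the 30 navitoclax and 1007 CPM (946 to 1070) in the 116 vehicle cells. Elovl5, an elongase of polyunsaturated fatty acids, was also highest there, at 130.6 CPM in the navitoclax and 149.1 CPM in the vehicle library, with an interval apart from that of AT2-like cells in the vehicle library only. Acss2, which makes acetyl-CoA from acetate, was highest in secretory-like cells, at 34.1 CPM in the navitoclax and 28.3 CPM in the vehicle library. Elovl6, which elongates palmitate, was close to absent from AT2-like cells, with 7 UMIs in the navitoclax and 4 in the vehicle library (0.133 and 0.0779 CPM). In fibroblast-like cells Elovl6 was at 8.52 and 6.14 CPM in the navitoclax and vehicle libraries. Fads1, a desaturase of polyunsaturated fatty acids, was at 77.3 and 73.8 CPM in fibroblast-like cells and at 67.6 and 67.0 CPM in AT2-like cells of the navitoclax and vehicle libraries, and Fads2, which acts before it, was at 7.70 and 8.21 CPM against 2.11 and 2.43 CPM. AT2-like cells therefore did not lead for every fatty acid gene. Scap and Fads2 were highest in the 31 navitoclax and 59 vehicle mesothelial-like cells, with intervals that overlapped those of the next class. For Insig2, Mvk, Hsd17b7, Elovl6 and Fads1 the highest class differed between the libraries.

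**Figure D1:**
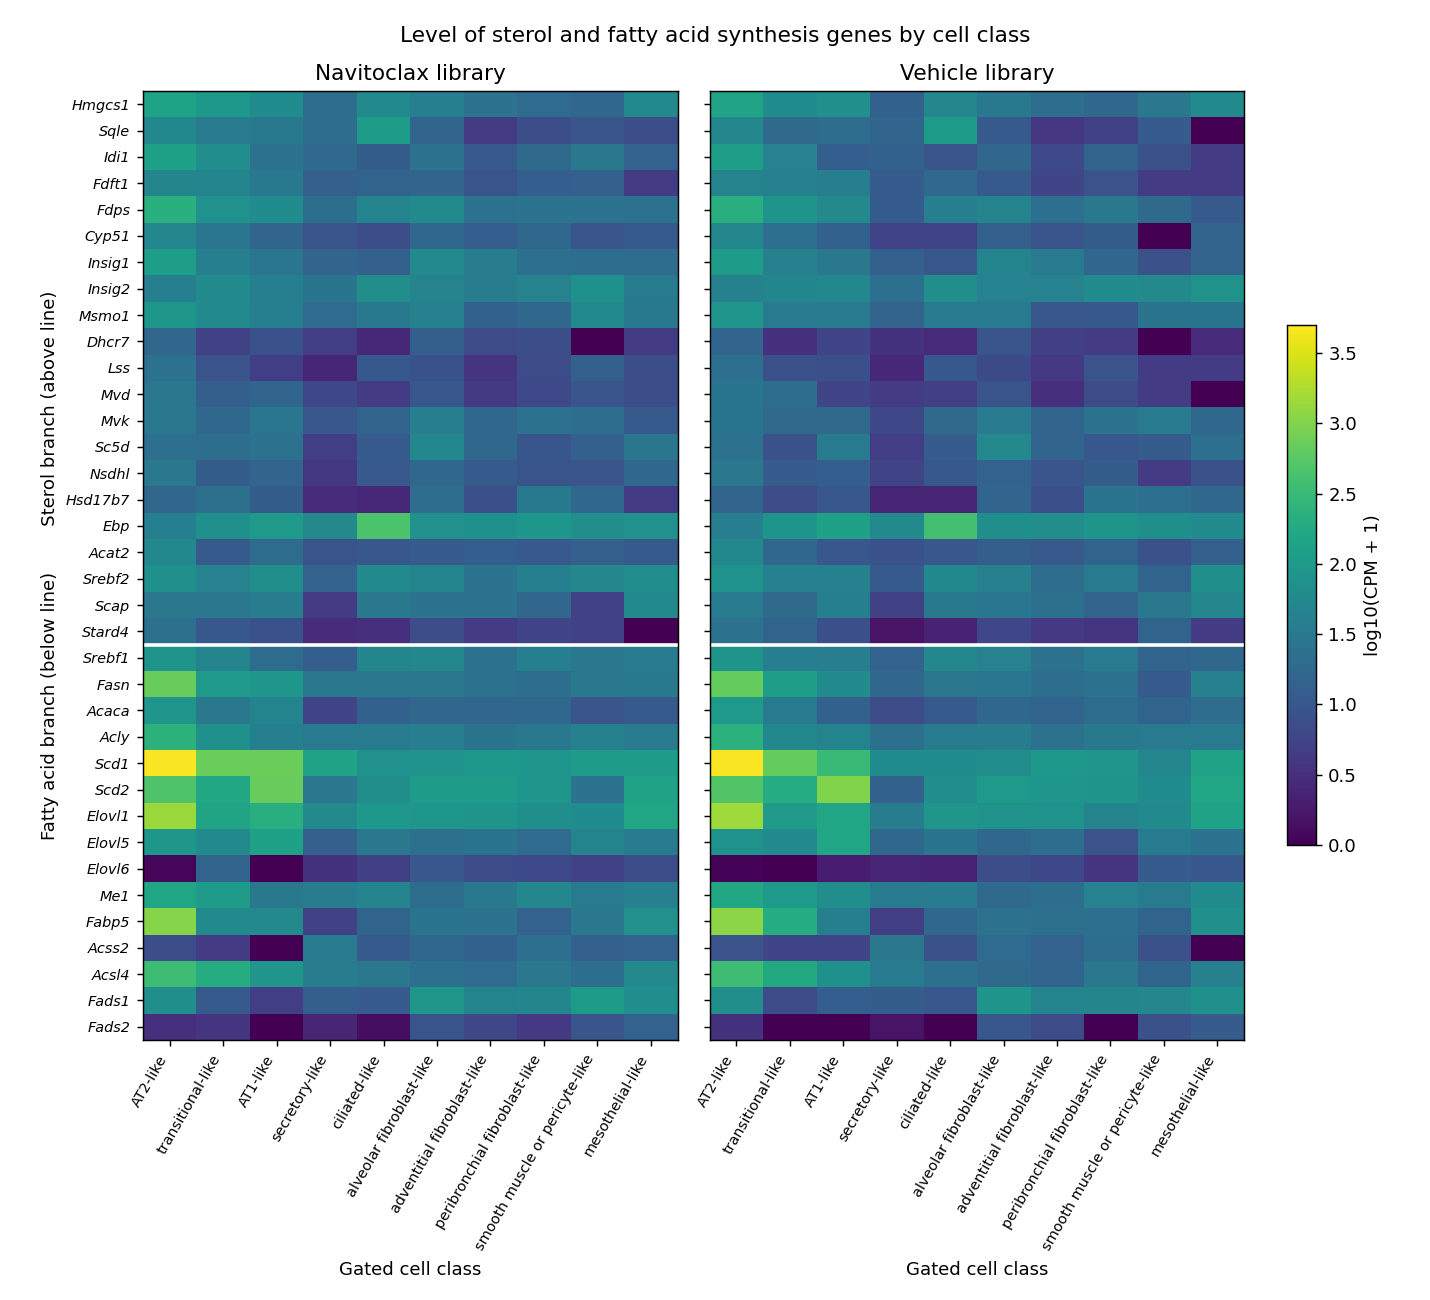
Level of each of the 36 genes (rows, fatty acid branch below the line) in each cell class (columns) of the navitoclax library (left) and the vehicle library (right), coloured by log10 of CPM plus 1. The bright AT2-like column holds the highest value for 14 sterol and 9 fatty acid genes in both libraries, and Ebp and Sqle stand out in ciliated-like cells.

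Free RNA was measured through Sftpc, the surfactant protein C gene of AT2 cells. Its level in fibroblast-like cells was 0.995% of that in AT2-like cells in the navitoclax library and 0.906% in the vehicle library. If each of the 36 genes reached fibroblast-like cells in that share of its AT2-like level, the amount would equal 57.2% and 62.0% of the Scd1 level in navitoclax and vehicle fibroblast-like cells. It would equal 44.7% and 45.8% for Fabp5, 25.5% and 22.9% for Fasn, and 17.0% and 16.9% for Elovl1. For sterol genes the same amount was at most 6.23% in navitoclax and 7.56% in vehicle fibroblast-like cells, both for Idi1.

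Whether the levels differed after navitoclax was then described by the ratio of CPM, navitoclax over vehicle, for genes with at least 50 UMIs in both libraries together. A gene is called higher here where its CPM in the navitoclax library was at least 25% above that in the vehicle library, and lower where the vehicle CPM was at least 25% above the navitoclax CPM. With 1 library per group there is no replicate check and no test between treatments. Alveolar fibroblast-like cells had higher levels of 11 of the 21 sterol genes in the navitoclax library and lower levels of 0. Of all 11709 genes tested in these cells, 7.81% were higher and 5.99% lower. The median log2 ratio of the sterol branch was 0.34, with 18 of 21 genes above 0, beside 0.00 over all genes tested. Median UMIs per cell, 8062.5 in navitoclax and 7430 in vehicle alveolar fibroblast-like cells, also differed, and with each cell thinned to 2000 UMIs the median was 0.35 with 12 genes higher. Marker lists differed as well in these cells. The 8 markers of fibrotic fibroblasts, 2 of them at or above 20 CPM in each library, summed to 396.3 CPM in navitoclax and 300.6 CPM in vehicle cells, and the 10 alveolar fibroblast markers to 12721 and 14605 CPM. Their part in the sterol values was not tested.

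Along the pathway, the enzymes of the early steps differed unequally. Acat2, which joins acetyl-CoA units, was at 10.53 CPM in navitoclax and 12.0 CPM in vehicle alveolar fibroblast-like cells, a ratio of 0.876 (0.717 to 1.07). Hmgcs1 was at 38.9 and 30.3 CPM, a ratio of 1.28 (1.15 to 1.44). The mevalonate kinase Mvk was at 37.8 and 33.9 CPM and the decarboxylase Mvd at 9.22 and 8.06 CPM, neither past the 25% threshold. Hmgcs1 was thus the gene of these 4 that was higher in the navitoclax library.

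Each of the 4 isoprenoid and squalene genes was higher. Idi1 was at 24.4 CPM in navitoclax and 15.6 CPM in vehicle alveolar fibroblast-like cells, a ratio of 1.56 (1.34 to 1.81), the highest of the 36 genes there. Fdps was at 57.8 and 44.1 CPM, a ratio of 1.31 (1.19 to 1.44). Squalene synthase, encoded by Fdft1, was at 14.9 and 9.99 CPM, a ratio of 1.49 (1.23 to 1.81), and Sqle was at 15.0 and 10.0 CPM, a ratio of 1.49 (1.23 to 1.80). For these 4 genes the counting intervals of the ratio lay above 1.

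Downstream of squalene, 5 of the 8 listed genes were higher. Lss, which closes the ring to lanosterol, was at 7.48 CPM in navitoclax and 5.68 CPM in vehicle alveolar fibroblast-like cells, a ratio of 1.32 (1.01 to 1.72) from 125 and 112 UMIs. Cyp51, the lanosterol demethylase, was at 17.1 and 12.6 CPM (ratio 1.35, 1.14 to 1.61), and Msmo1, the sterol methyl oxidase, at 41.6 and 31.3 CPM (ratio 1.33, 1.19 to 1.48). These act in sequence, making lanosterol and removing its methyl groups. Hsd17b7, the keto-reductase of the demethylation complex, was at 19.8 and 15.0 CPM (ratio 1.32, 1.13 to 1.55). Dhcr7, which makes cholesterol from its immediate precursor, was at 12.0 and 8.06 CPM (ratio 1.49, 1.21 to 1.85). Nsdhl, of the same demethylation complex, was at 15.98 and 13.3 CPM, a ratio of 1.20 (1.01 to 1.43) that stayed under the threshold. Ebp was at 72.9 and 69.5 CPM and Sc5d at 51.5 and 54.2 CPM in navitoclax and vehicle cells, so neither passed the threshold.

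Among the regulators, Srebf2 was at 45.8 CPM in navitoclax and 40.0 CPM in vehicle alveolar fibroblast-like cells, a ratio of 1.14 (1.03 to 1.27), and Scap was at 24.5 and 26.98 CPM, a ratio of 0.909 (0.797 to 1.04). Insig1, itself a target of these factors, was at 53.6 and 46.3 CPM, a ratio of 1.16 (1.05 to 1.27), and Insig2 was at 44.6 and 43.3 CPM. None of the 4 passed the 25% threshold. The cholesterol carrier gene Stard4 was at 6.40 and 5.07 CPM, and its ratio of 1.26 had an interval of 0.952 to 1.68 that included 1.

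**Figure D2:**
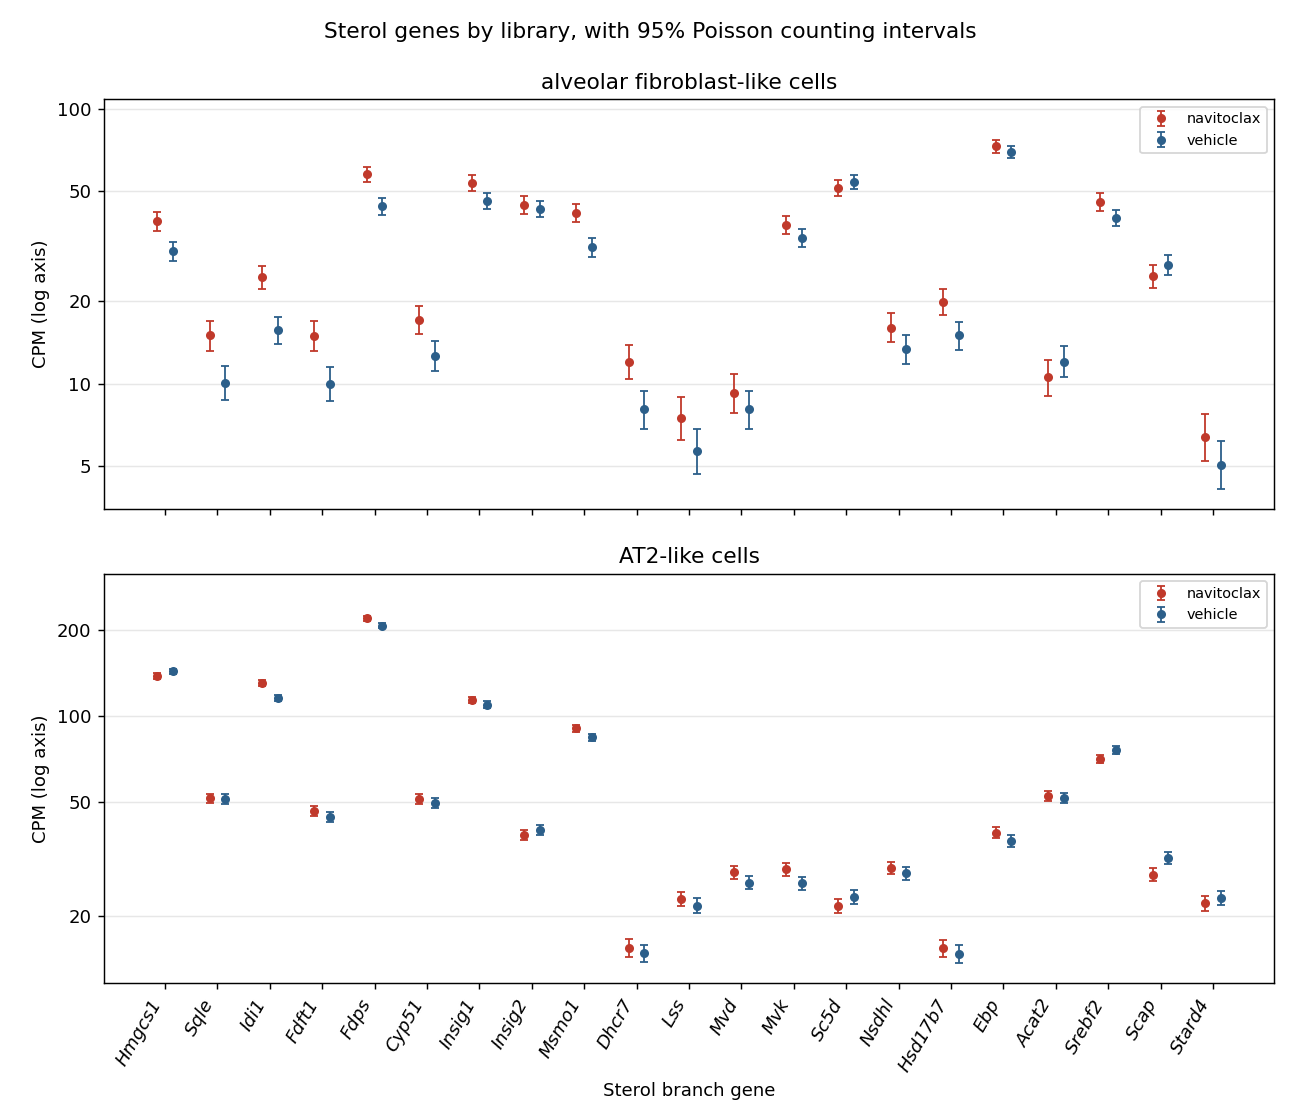
CPM (log axis) of the 21 sterol genes in alveolar fibroblast-like cells (top) and AT2-like cells (bottom), navitoclax in red left of vehicle in blue, 1 library each, bars being 95% Poisson counting intervals. In alveolar fibroblast-like cells 18 of 21 navitoclax points lie above their vehicle points, while in AT2-like cells the points of each gene lie close together.

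The fatty acid branch of the same alveolar fibroblast-like cells had 2 of 15 genes higher, beside the 7.81% of all genes, and 0 lower, with a median log2 ratio of 0.14. These were the elongase genes Elovl5 and Elovl6. Elovl5 was at 22.6 CPM in navitoclax and 16.2 CPM in vehicle cells, a ratio of 1.39 (1.19 to 1.62). Elovl6 was at 9.04 and 6.54 CPM, a ratio of 1.38 (1.08 to 1.76). The elongase gene Elovl1, at 86.2 CPM in navitoclax and 79.2 CPM in vehicle cells, did not pass the threshold. The synthesis enzymes themselves were close to equal, with Fasn at 28.1 and 27.3 CPM, Acaca at 15.86 and 15.98 CPM and Acly at 37.5 and 35.6 CPM in navitoclax and vehicle cells. Srebf1 was at 50.6 and 42.3 CPM, a ratio of 1.20 (1.09 to 1.32). Scd1, of which free RNA could make up a large share, was at 78.1 and 63.8 CPM, a ratio of 1.22 (1.13 to 1.32). The AT2 marker list moved the same way in these cells, its 11 genes summing to 3030 CPM in navitoclax and 2576 CPM in vehicle alveolar fibroblast-like cells, and the part of that in the fatty acid values was not tested.

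Genes of both pathways outside the 36 gave a mixed picture in alveolar fibroblast-like cells. Of 16 further sterol genes, 15 were tested, of which 2 were higher and 1 lower, beside 7.81% and 5.99% of all genes. Their median log2 ratio was 0.01. Tm7sf2, a sterol reductase, was at 2.81 CPM in navitoclax and 1.37 CPM in vehicle cells from 47 and 27 UMIs, a ratio of 2.05 (1.253 to 3.43). Most genes in that list serve storage, transport or efflux. The synthesis gene Pmvk, at 36.7 and 39.0 CPM in navitoclax and vehicle cells, and Ggps1, at 19.3 and 19.8 CPM, did not pass the threshold. Mylip, which marks lipoprotein receptors for degradation, was at 12.7 and 17.9 CPM, a ratio of 0.711 (0.596 to 0.845). Of 22 further fatty acid genes, 18 were tested, of which 2 (Acsl3 and Fabp4) were higher and 1 (Acacb) lower, beside the same shares of all genes. The intervals of Fabp4 and Acacb included 1. Acsl3, an acyl-CoA synthetase, was at 15.4 and 11.1 CPM, a ratio of 1.38 (1.15 to 1.67).

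Other fibroblast subtypes held fewer UMIs and fewer testable genes. In adventitial fibroblast-like cells, 5 of 16 tested sterol genes were higher and 0 lower, beside 12.9% and 10.3% of all genes, with a median log2 ratio of 0.22. Those 5 were Idi1, Fdft1, Cyp51, Msmo1 and Srebf2. The sterol values of these cells varied by cluster, as given further on. Idi1 was at 9.93 CPM in navitoclax and 5.56 CPM in vehicle adventitial fibroblast-like cells from 40 and 21 UMIs, a ratio of 1.79 (1.03 to 3.19), and 1.38 without the cell with most Idi1 UMIs in each library. The intervals of the other 4 included 1. Cyp51 there was at 1.21-fold, inside the threshold, without its top cells. Of 13 tested fatty acid genes in these cells, 3 were higher (Elovl5, Me1 and Acsl4), and Me1 was at 30.8 and 20.9 CPM, a ratio of 1.47 (1.10 to 1.98). Alveolar fibroblast markers summed to 2421 CPM in navitoclax and 3423 CPM in vehicle adventitial fibroblast-like cells, and their part in these values was not tested. Of 13 tested further sterol genes in these cells, 0 were higher and 2 lower, beside the same shares of all genes. Mylip was lower here too, at 26.8 CPM in navitoclax and 35.5 CPM in vehicle cells.

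Peribronchial fibroblast-like cells had only 7 testable sterol genes, of which Insig1 was higher and Insig2 lower, beside 14.9% and 13.9% of all genes. Insig2 was at 42.9 CPM in navitoclax and 60.9 CPM in vehicle cells, a ratio of 0.703 (0.497 to 0.995), and thinning the cells to 2000 UMIs turned its direction. Of 10 testable fatty acid genes, Elovl1 was higher, at 68.3 and 46.1 CPM, a ratio of 1.48 (1.06 to 2.10). In all fibroblast-like cells together, 7 of 21 sterol genes were higher and 0 lower, beside 8.45% and 5.6% of all genes, with a median log2 ratio of 0.22. Whether the subtypes differed from one another in this was not tested.

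AT2-like cells, where most of these genes were highest, held them at nearly equal levels. Of the 21 sterol genes 0 were higher and 0 lower, beside 9.54% and 4.08% of all 12290 genes tested, and of 14 tested fatty acid genes likewise 0 and 0. The median log2 ratio was 0.06 for the sterol and −0.01 for the fatty acid branch. Idi1 had the highest sterol ratio, 1.13 (1.09 to 1.17), and Scap the lowest, 0.876 (0.816 to 0.941). In the fatty acid branch Elovl5 was at 90.5 CPM in navitoclax and 77.5 CPM in vehicle AT2-like cells, a ratio of 1.17 (1.12 to 1.22), and Acaca was at 85.3 and 96.2 CPM, a ratio of 0.886 (0.851 to 0.923). Summed over the branch, sterol genes made up 1257 CPM in navitoclax and 1220 CPM in vehicle AT2-like cells, and fatty acid genes 9478 and 9574 CPM. Of 15 tested further sterol genes in AT2-like cells, 1 was higher and 0 lower, beside the same shares of all genes. It was Abca1, a cholesterol exporter, at 18.0 CPM in navitoclax and 13.5 CPM in vehicle cells, a ratio of 1.34 (1.21 to 1.48).

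**Figure D3:**
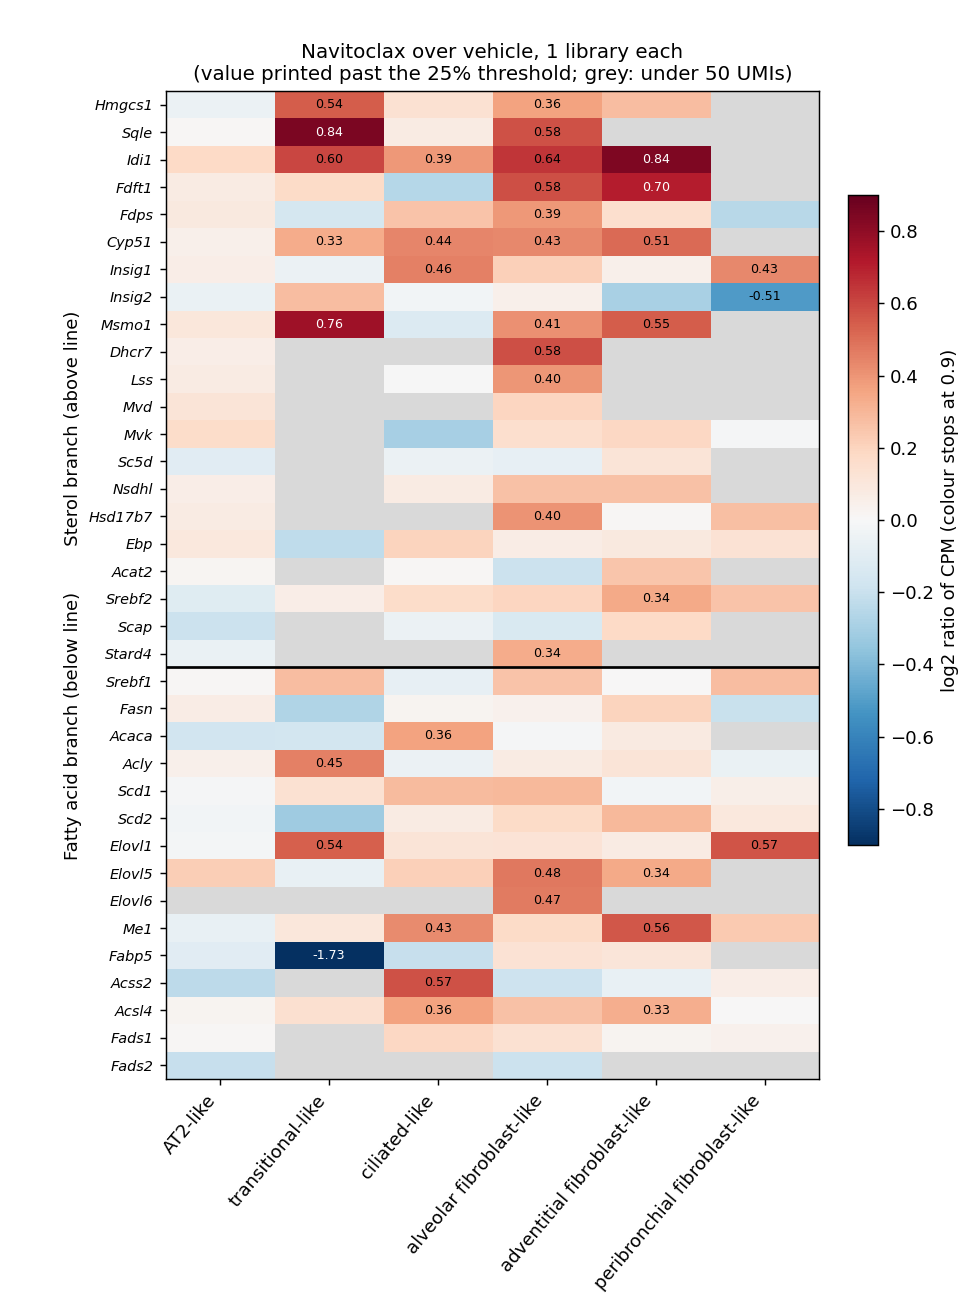
Log2 ratio of CPM, navitoclax over vehicle, for each gene (rows, fatty acid branch below the line) in the 6 cell classes compared apart from pooled fibroblast-like cells (columns), red higher and blue lower in the navitoclax library, with grey where a gene had under 50 UMIs and values printed for genes past the 25% threshold. The alveolar fibroblast-like column holds 11 such sterol genes and the AT2-like column 0.

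The near-equal AT2-like levels did not hold in every cluster of those cells. Clusters were formed without the 36 genes, and those with at least 100 AT2-like cells in each library were compared one by one. In cluster 0, with 466 navitoclax and 1078 vehicle cells, the median sterol log2 ratio was 0.04, with 0 of 21 sterol genes higher and 0 lower, beside 5.95% and 8.83% of all genes. In cluster 3, with 230 and 807 cells, it was also 0.04, with 1 higher and 0 lower, beside 9.26% and 9.74%. In cluster 6, with 344 navitoclax and 502 vehicle cells, it was 0.28, with 8 of 21 sterol genes higher and 0 lower, beside 8.4% and 7.88% of all genes. In cluster 1, with 1159 navitoclax but only 110 vehicle cells, it was 0.38, with 12 of 21 higher and 0 lower, beside 15.8% and 13.2%. Cluster 1 was drawn mostly from the navitoclax library, and a cell state and that library cannot be told apart there.

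The sterol genes that were higher in cluster 6 came from several steps of the pathway. Idi1 was at 142.6 CPM in navitoclax and 103.1 CPM in vehicle cells of cluster 6, a ratio of 1.38 (1.26 to 1.52), and Nsdhl was at 35.6 and 25.6 CPM, a ratio of 1.39 (1.15 to 1.67). Msmo1 was at 101.1 and 75.9 CPM, a ratio of 1.33 (1.20 to 1.48). The others were Sqle, Dhcr7, Lss, Mvd and Mvk. Of these 8, all but Nsdhl were also higher in cluster 1, where Idi1 was at 125.6 CPM in navitoclax and 85.1 CPM in vehicle cells. In cluster 1 the intervals of Dhcr7, Lss and Mvk included 1, from 26, 41 and 53 vehicle UMIs. The other 5 higher in cluster 1 were Fdft1, Cyp51, Insig1, Hsd17b7 and Stard4, with vehicle values that rested on 21 to 189 UMIs. The interval of Stard4 there included 1. Fatty acid genes were closer to equal, with a median log2 ratio of 0.18 in cluster 6 and 0.04 in cluster 1. In cluster 1, 1 of 14 tested fatty acid genes was higher and 1 lower, beside the 15.8% and 13.2% of all genes. Fads1 was at 68.1 CPM in navitoclax and 52.9 CPM in vehicle cells of cluster 1, a ratio of 1.29 (1.08 to 1.55), and Fabp5 was at 1129 CPM in navitoclax and 1521 CPM in vehicle cells, a ratio of 0.743 (0.718 to 0.769). Summed sterol CPM in clusters 0, 3, 6 and 1 was 1582, 1241, 1323 and 1225 in navitoclax cells, and 1468, 1205, 1100 and 991.3 in vehicle cells. The vehicle cells of clusters 6 and 1 thus had lower sums than those of clusters 0 and 3, while the navitoclax cells of cluster 6 lay above those of cluster 3.

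Fibroblast-like clusters also varied. Among clusters of alveolar fibroblast-like cells, the median sterol log2 ratio was 0.34 in cluster 2, with 385 navitoclax and 839 vehicle cells (11 of 21 higher, 1 lower, beside 10.8% and 9.16% of all genes) and 0.31 in cluster 5, with 586 and 415 cells (10 of 21 higher, 0 lower, beside 11.9% and 8.84%). It was 0.20 in cluster 8, with 245 navitoclax and 389 vehicle cells (7 of 18 higher, 0 lower, beside 9.74% and 11.2%). In cluster 4, with 452 navitoclax and 565 vehicle cells, it was −0.03, with 3 of 19 higher and 2 lower, beside 10.6% and 9.91%. Cluster 7, with 209 navitoclax and 175 vehicle cells, had only 1 testable sterol gene, at −0.27. Clusters 9 and 12 were adventitial fibroblast-like. In cluster 9, with 294 navitoclax and 331 vehicle cells, the median was 0.01 (1 of 12 higher, 1 lower, beside 12.4% and 12.7%). In cluster 12, with 182 navitoclax and 220 vehicle cells, it was 0.25 (4 of 12 higher, 0 lower, beside 14.7% and 12.1%). The difference between clusters was not tested. Hmgcs1 lay above 0 in all 7 fibroblast-like clusters where it was tested, by 0.06 to 0.80 on the log2 scale, and Fdft1 and Sqle in all 4. Fdps lay above 0 in 4 of 7, between −0.56 and 0.78, although it was higher in the alveolar subtype as a whole. Idi1, Cyp51 and Hsd17b7 each lay above 0 in 4 of 5, Msmo1 in 5 of 6 and Dhcr7 in 3 of 4. Sc5d lay below 0 in all 6, by −0.24 to −0.01.

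**Figure D4:**
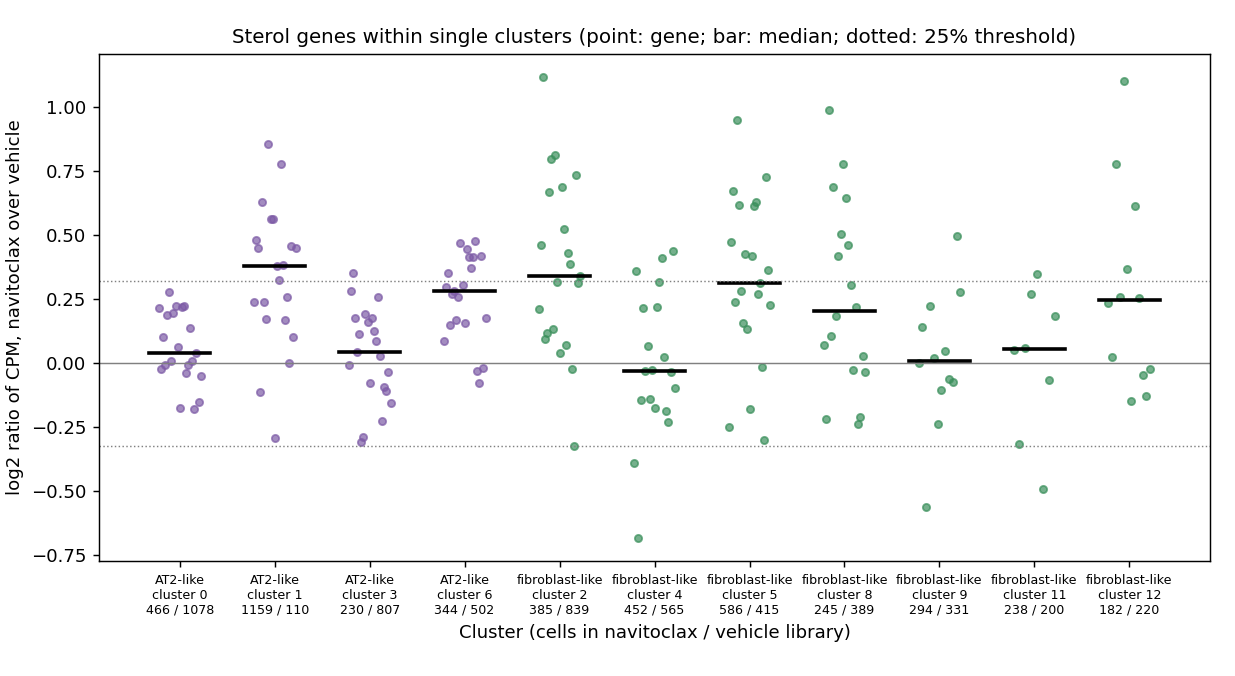
Log2 ratio of CPM, navitoclax over vehicle, of each tested sterol gene (points) within single clusters of AT2-like and fibroblast-like cells, with the median as a bar and dotted lines at the 25% threshold. Medians are near 0 in AT2-like clusters 0 and 3 and fibroblast-like clusters 4, 9 and 11, and 0.28 or more in AT2-like clusters 1 and 6 and fibroblast-like clusters 2 and 5.

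Transitional-like cells, keratin-rich epithelial cells between AT2 and AT1 states, gave only 11 testable genes in each branch. Of the sterol genes, 5 were higher and 0 lower, beside 18.5% and 18.1% of all genes, with a median log2 ratio of 0.27. Hmgcs1 was at 91.9 CPM in navitoclax and 63.1 CPM in vehicle transitional-like cells, a ratio of 1.46 (1.04 to 2.07). Msmo1 was at 57.6 and 34.0 CPM (ratio 1.70, 1.08 to 2.74), and Idi1 at 64.4 and 42.4 CPM (ratio 1.52, 1.00 to 2.34). Sqle was at 32.7 and 18.2 CPM and Cyp51 at 27.5 and 21.8 CPM, both with intervals that included 1. With a stricter assignment of cells to the class, only 1 of 8 testable sterol genes was higher, 3 were lower, and the median was −0.01.

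In the fatty acid branch of transitional-like cells, 2 of 11 tested genes were higher (Acly and Elovl1) and 1 lower (Fabp5), beside 18.5% and 18.1% of all genes. Elovl1 was at 144.4 CPM in navitoclax and 99.4 CPM in vehicle cells, a ratio of 1.45 (1.11 to 1.91). Fabp5 was at 57.6 and 191.6 CPM, a ratio of 0.30, but 123 of the 158 vehicle UMIs came from 1 cell, and without the top cell of each library the ratio was 1.05. Its lower level thus rested on that cell. Secretory markers summed to 24057 CPM in navitoclax and 11198 CPM in vehicle transitional-like cells, AT1 markers to 4058 and 6141 CPM and ciliated markers to 277.5 and 847.7 CPM, and the part of these lists in the differences of this class was not tested. Of the further fatty acid genes, 5 of 11 tested were higher and 1 (Elovl7) lower, beside the 18.5% and 18.1% of all genes. Elovl7, an elongase, was at 41.2 CPM in navitoclax and 58.2 CPM in vehicle cells, with an interval that included 1. Among the higher were Cpt1a, which carries fatty acids into mitochondrial oxidation, at 30.9 and 17.0 CPM from 36 and 14 UMIs, Plin2, which coats lipid droplets, at 129.7 and 75.2 CPM, a ratio of 1.73 (1.28 to 2.36), and Cd36, a fatty acid transporter, at 323.9 and 190.4 CPM, a ratio of 1.70 (1.41 to 2.06).

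Ciliated-like cells had 3 of 17 tested sterol genes higher (Idi1, Cyp51 and Insig1) and 0 lower, beside 8.51% and 8.36% of all genes, with a median log2 ratio of 0.07. Their UMIs ran from 37 to 71 in the navitoclax and from 19 to 36 in the vehicle library, and each interval included 1. Ebp and Sqle, the genes at which these cells led, were under the threshold. In the fatty acid branch 4 of 13 tested genes were higher (Acaca, Me1, Acss2 and Acsl4), and Me1, at 44.1 CPM in navitoclax and 32.8 CPM in vehicle ciliated-like cells, had a ratio of 1.34 (1.08 to 1.67). Secretory markers summed to 27168 CPM in navitoclax and 18105 CPM in vehicle ciliated-like cells, and their part in these values was not tested. Of 13 tested further sterol genes in ciliated-like cells, 0 were higher and 3 lower, beside 8.51% and 8.36% of all genes. Mylip was at 15.1 and 19.7 CPM in navitoclax and vehicle ciliated-like cells, and Abcg1, which exports sterol, at 8.78 and 15.1 CPM, a ratio of 0.580 (0.390 to 0.858).

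Across the 6 classes compared apart from pooled fibroblast-like cells, Idi1 and Cyp51 were the genes most often higher. Each was higher in 4 of the 5 classes where it could be tested and above 0 in all 5. Those 4 were transitional-like, ciliated-like, alveolar fibroblast-like and adventitial fibroblast-like cells, where 18.5%, 8.51%, 7.81% and 12.9% of all genes were higher. The interval of Cyp51 included 1 in each of them but alveolar fibroblast-like cells, and that of Idi1 in ciliated-like cells. Both genes turned direction when transitional-like cells were thinned, and Cyp51 also when ciliated-like cells were. Msmo1 was higher in 3 of 5. Insig2 was above 0 in 2 of 6 classes and Sc5d in 1 of 4, while Acsl4 was above 0 in 6 of 6. All classes of a treatment come from the same library, so they are not independent repeats of it.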

How the data were processed

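The authors deposited raw counts of UMIs for every gene and barcode; the labels name a Chromium 3′ kit. The matrices carry Cell Ranger 4.0.0 in their headers, and the submitters' processing notes give mm10 as the build. Further upstream settings are not given in the sources used. A barcode was kept if it had 500 genes or more and no more than 15% of mitochondrial UMIs. Scrublet (scanpy 1.11.5, expected rate 6%) removed 205 navitoclax (3.18%) and 222 vehicle (3.00%) doublets. Free RNA was not subtracted.

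Each cell was scored for marker lists, as the mean over markers of log counts per 10000 UMIs divided by their 90th percentile among non-zero cells and limited to 1. It took the leading class if the score was at least 0.25 and led by at least 0.05; 228 navitoclax and 240 vehicle cells took none, and 221 and 204 fibroblast-like cells no subtype. This scoring rule was set after the data were seen, and the genes, lists and markers were chosen with earlier results of these data known.

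For each class and library, UMIs were summed and scaled to CPM. Levels had exact Poisson 95% intervals and ratios conditional exact ones (scipy 1.17.1). Levels were described in classes with at least 25 cells per library, ratios in classes with at least 50. The share of genes past the 25% threshold was taken over all genes with at least 50 UMIs. Genes of the 36 past that threshold in a cell class (pooled fibroblast-like cells aside), or highest there in both libraries, were named, with up to 3 other pathway genes per class and list. Clusters, used as an alternative, were made without the 36 genes from 2000 variable genes, 30 principal components and 15 neighbours with Leiden clustering (leidenalg 0.10.2) at resolution 1. TMM scaling used edgeR 4.0.16. Recovery of known ratios was tested on simulated data. Gene coordinates came from GENCODE M21. A gene of the further sterol list is not reported here.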

Additional observations from a re-analysis of the deposited data

Results flagged for a closer look

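Some further genes of both pathways lay past the 25% threshold in opposite directions in different cell classes. With 1 library per group the difference between classes was not tested, and no explanation was weighed. Abca1 had a log2 ratio, navitoclax over vehicle, of 0.42 in AT2-like and 0.41 in transitional-like cells, against −0.36 in ciliated-like cells. Acacb, which makes malonyl-CoA at mitochondria, was at 0.40 in AT2-like cells and −0.44 in alveolar fibroblast-like cells. Fabp4, a fatty acid carrier, was at −0.55 in AT2-like cells, from 21 navitoclax and 30 vehicle UMIs, and at 0.40 in alveolar fibroblast-like cells, from 29 and 26 UMIs. The intervals of Acacb and Fabp4 in alveolar fibroblast-like cells included a ratio of 1. Osbp, an oxysterol-binding protein, was at −0.57 in transitional-like cells, from 40 and 42 UMIs, and at 0.34 in peribronchial fibroblast-like cells, from 48 and 27 UMIs.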

How the results depend on the processing

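Of 139 alternative values of the branch medians, 130 stayed within the counting spread of the reported value and 8 moved further. The remaining 1 turned direction from a median larger than that spread. The spread was wide in small classes. In transitional-like cells, sterol medians from −0.006 to 0.61 over 10 alternatives all counted as within it. In ciliated-like cells, so did sterol medians from −0.17 to 0.20 over 12 alternatives. The count of 130 therefore says little about stability in those classes. The alternatives were another assignment of cells, mitochondrial limit, doublet treatment, depth, weighting, UMI minimum, pseudocount, scaling, and single clusters. The single clusters, and every alternative for alveolar fibroblast-like cells taken alone, were chosen after seeing the data. The sterol median in alveolar fibroblast-like cells was 0.19 to 0.35 over 12 alternatives, with 7 to 12 genes higher and 0 lower; the 7 came with a pseudocount of 5 CPM. In pooled fibroblast-like cells it was −0.028 within cluster 4 and 0.0095 within cluster 9, and 3 genes were higher with that pseudocount. The fatty acid median there was 0.33 within cluster 2, with 8 genes higher; otherwise 1 to 4 fatty acid genes were higher over 12 alternatives in pooled and likewise in alveolar fibroblast-like cells, beside 2 as reported. In AT2-like cells thinning gave 1 sterol gene higher and 2 fatty acid genes lower, and equal weights 1 fatty acid gene lower, beside 0 as reported. The sterol median there was 0.38 within cluster 1 and 0.28 within cluster 6, and the fatty acid median 0.030, 0.041 and 0.18 within clusters 0, 1 and 6. The fatty acid median in ciliated-like cells was 0.75, with 11 genes higher, in clusters named by markers, and 2 were higher with doublets kept, at least 200 UMIs or the pseudocount; the sterol count there was 0 to 7 higher and 0 to 6 lower. Transitional-like counts were 1 to 8 sterol genes higher and 0 to 3 lower, and 0 to 4 fatty acid genes each way. No clusters of that name and no sterol value at 200 UMIs could be had for them.

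Single log2 ratios that turned were, in transitional-like cells, Idi1 (−0.12) and Cyp51 (−0.13) and Fabp5 (0.079) with a stricter gate, Idi1 (−0.46), Cyp51 (−1.78) and Acly (−0.20) when thinned, and Fabp5 (0.074) without its top cells. In ciliated-like cells they were Cyp51 when thinned (−0.58) and Acaca with cells weighted equally (−0.23). In fibroblast-like cells they were Idi1 (−0.027), Dhcr7 (−0.68), Hsd17b7 (−0.14) and Elovl6 (−0.68) within cluster 4, Cyp51 within cluster 8 (−0.22), Msmo1 within cluster 9 (−0.11) and Hsd17b7 when thinned (−0.019). In adventitial fibroblast-like cells they were Cyp51 (−0.046) and Msmo1 (−0.032) with equal weights and Srebf2 when thinned (−0.14), and in peribronchial fibroblast-like cells Insig2 when thinned (0.14). The cause was not tested. No paired analysis was possible because each group had 1 library, which also leaves no replicate to omit.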
